A study of Mus musculus with 16 samples.

Results

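The genes described here serve MHC class I antigen presentation and the response to interferon, read in mouse hypothalamus. They were taken by name from a list of 34 genes, 14 of class I presentation and 20 that interferon induces, through the gene names and accessions of the array probes. Of these, 33 were measured by a probe that was kept (39 probes in all), out of 24360 genes tested in the series. H2-Q6 had no probe of its own, since its transcript is listed on the probe of its neighbour H2-Q8.

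Total RNA of 16 hypothalami was hybridised to 1-colour Agilent arrays, 1 animal per array. The 8 KO chimeras were C57BL/6J mice irradiated with 950 Rad, a dose that destroys an animal's own blood-forming cells, and given whole bone marrow of Adrb1tm1BkkAdrb2tm1Bkk/J donors, which lack the beta-1 and beta-2 adrenergic receptors. The marrow was given once behind the eye at a stated ratio of 1 to 4 (donor strain to C57BL/6J), and tissue was taken after 2 to 3 months. The 8 control mice carry the same treatment text and the same strain field (irradiated C57BL/6J), and a field for the marrow donor exists for the KO chimeras alone. Whether the controls were irradiated and given other marrow, or neither, is therefore not settled. The labels give neither the age of the animals nor the share of blood cells that came from the donor. In a marrow chimera the neurons and glia of neural origin are the host's own. The question behind the comparison, per the study's title, is what loss of sympathetic drive does in bone, hypothalamus and gut. With 1 animal per array, the p-values rest on the variation among these 16 animals.

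Class I molecules show the cell's own peptides to CD8 T cells. The heavy chains H2-K1 and H2-D1 need the light chain B2m, peptides are cut by an immune form of the proteasome, carried into the endoplasmic reticulum by the transporter Tap1 and Tap2 and loaded with the help of Tapbp, and Nlrc5 switches the whole group on in the nucleus. Interferons bind receptors that activate Stat2 and related factors, which join Irf9 on short promoter elements and induce antiviral genes. Class I genes answer to interferon too, and in brain both groups are carried to a large part by microglia, endothelium and other cells outside the neuronal lineage, with low levels in most neurons at rest.

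Promoters from RefSeq (GRCm38.p6, 250 bases before to 50 after each start site) were found for 12 class I and 17 interferon-induced genes of the list. The core of the interferon element, GAAANNGAAA on either strand with overlapping matches counted, was in 1131 of all 32851 promoters (3.44%) and in 1079 of 27025 genes (3.99%). It was in 12 of the 17 interferon-induced genes (70.6%) and in 2 of the 12 class I genes, B2m and H2-T23. These shares were not tested against each other. The stretches below, all before the start site and written along the gene's own strand, show 4 of the interferon-induced genes and both class I genes that hold the core. Capitals mark the core, forward or reversed.
Isg15, chr4:156200855-156200916, minus strand: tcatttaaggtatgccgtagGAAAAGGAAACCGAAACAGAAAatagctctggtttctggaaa
Ifit1, chr19:34640765-34640833, plus strand: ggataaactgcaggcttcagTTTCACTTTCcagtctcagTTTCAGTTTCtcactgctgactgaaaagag
Irgm1, chr11:48871421-48871470, minus strand: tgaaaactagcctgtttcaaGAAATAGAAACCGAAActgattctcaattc
Gbp2, chr3:142620584-142620633, plus strand: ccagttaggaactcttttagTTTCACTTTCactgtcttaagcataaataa
B2m, chr2:122147528-122147577, plus strand: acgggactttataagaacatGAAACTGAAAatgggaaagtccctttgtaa
H2-T23, chr17:36032796-36032845, minus strand: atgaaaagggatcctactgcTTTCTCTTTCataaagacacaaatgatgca
Isg15 has 3 overlapping cores that begin 78, 72 and 66 bases before its start site, Irgm1 has 2 overlapping ones and Ifit1 has 2 apart. A match here is a run of letters and was not tested for binding.

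Class I genes are close copies of each other, and this limits what a probe can tell apart. The pair of 60-base probes below is shown because the capitals, 29 bases in the part that codes for the membrane span, are the same in both, in mm9 coordinates; the H2-T23 probe maps onto a longer genomic stretch than its own length.
H2-K1, chr17:34133984-34134043: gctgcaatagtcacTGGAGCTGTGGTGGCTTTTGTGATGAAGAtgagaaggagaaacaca
H2-T23, chr17:36167338-36167574: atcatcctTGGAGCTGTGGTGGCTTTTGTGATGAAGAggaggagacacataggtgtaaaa
This is 1 of 3 H2-K1 probes, and the one tested lies elsewhere in the gene (chr17:34133055-34133114) and shares no 20-base run with a probe of another gene. The H2-Q7 probe shares 28 bases with a probe of H2-K2 and also lists the transcript of H2-Q9. Stretches of 20 bases of the H2-Q4 probe recur in the promoters of 33 other genes, and those of the Iigp1 probe in promoters of 4. The tested probes of Isg15 and Ifi27l2a each share a 20-base run with a probe of 1 other gene. Values of these 6 members may therefore include other transcripts.

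No class I member and no interferon-induced member passed the test between KO chimeras and controls, at an adjusted p under 0.05 (limma, Benjamini-Hochberg over all 24360 genes). Over all genes the same test called 933 genes, 3.83% of those tested, of which 250 (1.03% of genes tested) were higher and 683 (2.8%) lower in KO chimeras. The share of calls that were higher, 26.8%, became 62.9% of 723 calls when arrays were scaled on the probes above background on all arrays, and 4.27% of 4168 calls when they were scaled on the median. At an unadjusted p under 0.05, limma gave 3 of the 33 members, Ifi44, Iigp1 and Ifit2, against 5049 of all genes (20.7%). An exact permutation test that ran through each of the 12870 assignments also called 0 members, with 1 at an unadjusted p under 0.05 (Ifi44, against 21% of all genes). It called 1219 of the 24277 genes with complete values (5.02%). The median log2 fold change, KO chimera minus control, was 0.08 over the 13 class I members and 0.06 over the 20 interferon-induced members, against −0.00035 over all genes. It was above 0 in 23 of the 33 members (10 class I and 13 interferon-induced) and in 49.9% of all genes, but with median scaling, which moved the median of all genes by −0.13, in 11 of the 33. In none of the 33 did the groups separate without overlap, as they did in 233 of all genes (0.956%).

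The 95% interval of the difference lay within ±0.5 on the log2 scale for 25 of the 33 members, 12 of the 13 class I and 13 of the 20 interferon-induced genes. It lay within ±1 for all but Ifi44.

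**Figure D1:**
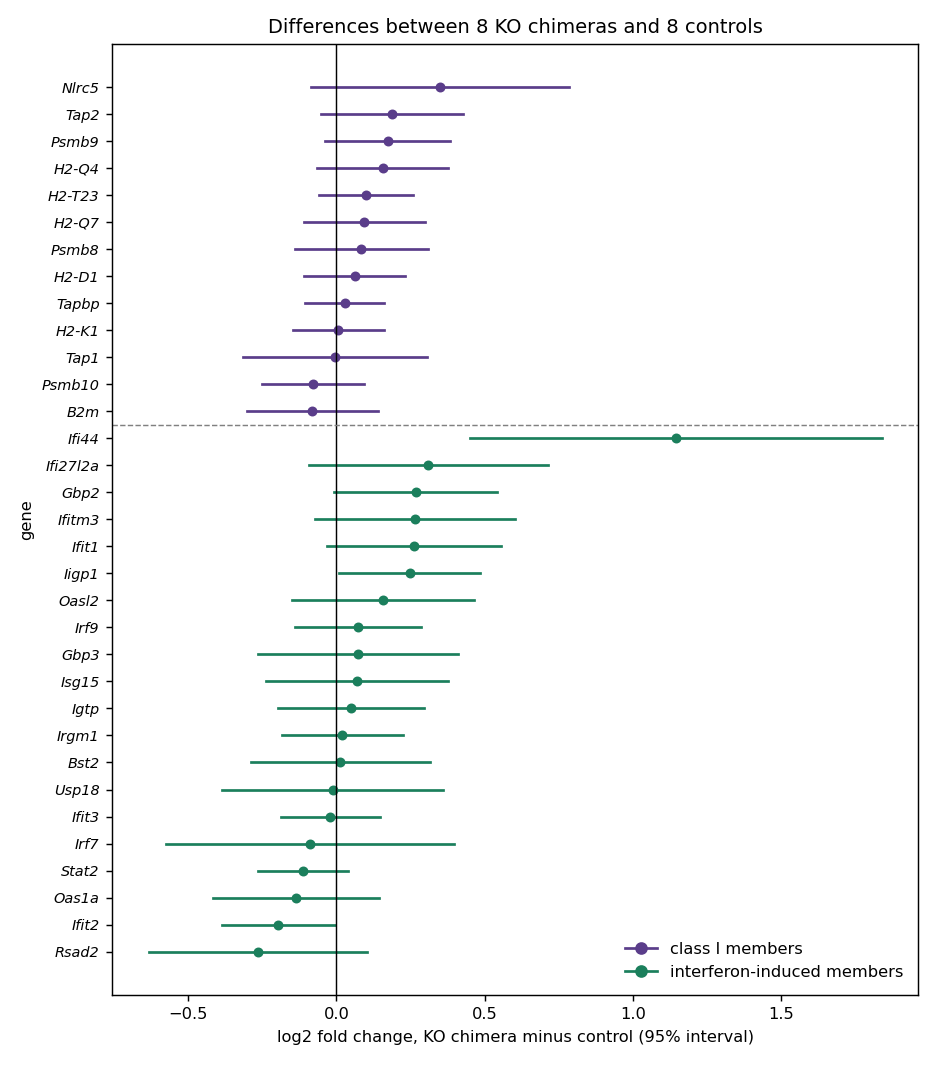
Log2 fold change (KO chimera minus control, 8 animals each) of the 33 measured members with its 95% interval from limma, class I members above the dashed line and interferon-induced members under it. Ifi44 at 1.15 stands far to the right with the widest interval, and the other members lie between −0.26 and 0.35.

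The array scale used throughout is the log2 intensity relative to the array's own 75th percentile, so 0 is the level of that percentile, and levels of different probes are not comparable. Of the 33 members, 27 were well above background on all 16 arrays. The exceptions were Tap1 (6 KO chimeras, 8 controls), Nlrc5 (7 and 7), Irf7 (4 and 6), Usp18 (7 and 8), Rsad2 (5 and 6) and Ifi44 (5 and 4).

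Among the class I genes, B2m, the light chain that all class I molecules share (chr2:121978401-121978460, mm9), ranged over 2.48, 3.05 and 3.41 (lowest, median, highest) in KO chimeras and 2.92, 3.16 and 3.27 in controls. The KO chimeras held both the highest and the lowest of the 16 animals, replicates 4 and 1, and spanned the whole control range. The log2 fold change was −0.08 (SE 0.10, adjusted p = 0.698). H2-K1, a classical heavy chain, had 2.34, 2.44 and 2.83 in KO chimeras, against 2.35, 2.46 and 2.74 in controls, with a difference of 0.0065 (95% interval −0.15 to 0.16). Both groups had 1 animal clearly above the rest, KO chimera replicate 4 and control replicate 2. The other 2 H2-K1 probes gave differences of 0.10 each. H2-D1, the other classical heavy chain, had 1.67, 1.96 and 2.22 in KO chimeras and 1.74, 1.94 and 2.14 in controls, which overlap almost fully (log2 fold change 0.06, SE 0.08, adjusted p = 0.702).

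The non-classical heavy chains had differences above 0 that were within the spread between animals. H2-Q4 had 5.96, 6.23 and 6.57 in KO chimeras, against 5.86, 6.08 and 6.34 in controls (log2 fold change 0.16, SE 0.10, adjusted p = 0.419), and KO chimera replicates 4 and 1 alone exceeded every control by more than 0.1. H2-Q7 had 1.01, 1.44 and 1.74 in KO chimeras and 1.20, 1.31 and 1.63 in controls (0.09, SE 0.10, adjusted p = 0.61). Its KO chimera replicate 1 was the lowest of all 16, although 7 of the 8 KO chimeras were above the control median. H2-T23, which in mouse carries the Qa-1 antigen that NK receptors read, had 1.69, 1.90 and 2.15 in KO chimeras and 1.65, 1.82 and 2.03 in controls (0.10, SE 0.08, adjusted p = 0.481).

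The genes that cut, carry and load peptides also overlapped between the groups. Psmb9, a catalytic subunit of the immunoproteasome, had −1.79, −1.44 and −1.04 in KO chimeras and −1.92, −1.62 and −1.33 in controls (0.17, SE 0.10, adjusted p = 0.338). Tap2, a chain of the peptide transporter, had 1.23, 1.57 and 1.88 in KO chimeras and 1.20, 1.37 and 1.87 in controls (0.19, SE 0.11, adjusted p = 0.364). In both genes 7 of 8 KO chimeras exceeded the control median, and the ranges overlapped, nearly throughout for Tap2 and less so for Psmb9, where KO chimera replicates 4 and 7 lay above every control. Differences of the other catalytic subunits Psmb8 and Psmb10, of the partner chain Tap1 and of the loading factor Tapbp lay between −0.08 and 0.08, with adjusted p-values of 0.617 to 0.989. Nlrc5, the class I transactivator, had −3.92, −3.67 and −2.72 in KO chimeras, against −4.28, −3.98 and −3.01 in controls. All 8 KO chimeras lay above the control median, yet the spread of about 0.45 (KO chimeras) and 0.43 (controls) within each group left the difference of 0.35 (SE 0.21) at an adjusted p of 0.348. The other Nlrc5 probe, at a different place in the gene, gave −0.01.

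Among the interferon-induced genes, those that relay the signal did not differ beyond their spread. Stat2, a subunit of the interferon-activated complex, had 0.20, 0.51 and 0.62 in KO chimeras, against 0.38, 0.61 and 0.81 in controls (−0.11, SE 0.07, adjusted p = 0.386). Irf9, the DNA-binding partner in that complex, had 0.15, 0.28 and 0.84 in KO chimeras and 0.16, 0.30 and 0.51 in controls (0.07, SE 0.10, adjusted p = 0.716), where KO chimera replicates 2 and 4 lay above every control. Irf7, the factor that amplifies type I interferon production, was dim, with −5.17, −4.76 and −3.72 in KO chimeras and −5.57, −4.50 and −3.90 in controls (−0.09, SE 0.23, adjusted p = 0.859). Usp18, a protease that removes Isg15 and damps the receptor, had −3.52, −3.02 and −2.15 in KO chimeras and −3.55, −3.01 and −2.49 in controls, a difference of −0.01 (SE 0.18). Its highest animal of all 16 was KO chimera replicate 4.

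The antiviral effectors lay on both sides of 0. Ifi44, an interferon-induced gene of poorly known function (chr3:151394035-151394094, mm9), had −4.63, −3.95 and −2.85 in KO chimeras, against −6.81, −4.92 and −4.31 in controls. All 8 KO chimeras were above the control median, but 3 controls (replicates 4, 7 and 8) lay within the KO chimera range and the spread was wide in both groups (SD 0.60 and 0.81). Its log2 fold change of 1.15 (SE 0.33) was the largest of the 33 and missed the threshold at an adjusted p of 0.0594. The probe was well above background in only 9 of 16 animals. With normexp background correction, which adds an offset of 50 to every signal, the log2 fold change was 0.30 (adjusted p = 0.404), and 5 other settings took it past their threshold.

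Ifit1 and Ifit2, which bind foreign RNA or the translation machinery, lie close on chromosome 19 with Ifit3 between them. Their differences lay on opposite sides of 0. Ifit1 had −2.87, −2.59 and −2.01 in KO chimeras, against −3.14, −2.84 and −2.34 in controls (0.26, SE 0.14, adjusted p = 0.297). Ifit2 had −2.21, −2.05 and −1.81 in KO chimeras, against −2.11, −1.83 and −1.55 in controls (−0.20, SE 0.09, adjusted p = 0.23). For Ifit2 only 1 KO chimera exceeded the control median, and for Ifit1 7 did. The third member of that family, Ifit3, had 0.72, 0.89 and 1.21 in KO chimeras and 0.71, 0.98 and 1.08 in controls, a difference of −0.02 (SE 0.08). Isg15, the ubiquitin-like modifier, had −0.48, −0.26 and 0.40 in KO chimeras and −0.81, −0.22 and 0.11 in controls (0.07, SE 0.14, adjusted p = 0.822). Its highest KO chimera, replicate 4, lay 0.29 above the highest control.

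Oas1a and Oasl2 belong to the oligoadenylate synthetase family, whose active members make the messenger that switches on RNase L. Oas1a had −2.32, −2.22 and −1.24 in KO chimeras, against −2.21, −1.92 and −1.64 in controls. Replicate 4 lay above every control, replicates 1 and 2 lay within the control range and the other 5 KO chimeras lay below it. The difference of −0.14 (SE 0.13, adjusted p = 0.587) became −0.26 without replicate 4 (unadjusted p = 0.00656, adjusted p = 0.1). Oasl2 had −1.52, −0.70 and −0.53 in KO chimeras and −1.28, −1.11 and −0.43 in controls (0.16, SE 0.15). Ifitm3, which blocks virus entry at membranes, had −0.90, −0.44 and −0.02 in KO chimeras and −1.31, −0.69 and −0.28 in controls (0.27, SE 0.16, adjusted p = 0.359). The 3 highest of all 16 values for Ifitm3 were KO chimera replicates 8, 7 and 4.

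The GTPases that attack vacuoles of intracellular microbes, which answer mostly to interferon gamma, overlapped between the groups. Gbp2 had −2.01, −1.73 and −1.36 in KO chimeras and −2.36, −2.04 and −1.33 in controls (0.27, SE 0.13, adjusted p = 0.255). All 8 KO chimeras lay above the control median, but control replicate 7 was the highest animal of all. Iigp1 had −0.09, 0.07 and 0.45 in KO chimeras, against −0.50, −0.08 and 0.21 in controls (0.25, SE 0.11, adjusted p = 0.224). Irgm1 had −1.07, −0.45 and −0.30 in KO chimeras and −0.72, −0.52 and −0.38 in controls, a difference of 0.02 (SE 0.10), with KO chimera replicate 1 far below the rest. Gbp3 and Igtp differed by 0.07 (SE 0.16) and 0.05 (SE 0.12). Of the remaining effectors, Bst2, the tetherin that holds budding virus, differed by 0.01 (SE 0.14), Ifi27l2a by 0.31 (SE 0.19) and Rsad2, which makes the antiviral nucleotide ddhCTP, by −0.26 (SE 0.17).

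One animal stood apart across both subgroups. KO chimera replicate 4 had the highest level of all 16 animals in 17 of the 33 members (51.5%), 8 of 13 class I and 9 of 20 interferon-induced genes, while it was the highest in 6.11% of all genes. It lay above the median of the other 15 animals in 31 of the 33 members. Its median distance from that median was 0.33 over the class I members and 0.48 over the interferon-induced members, against −0.01 over all genes.

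The largest distances of KO chimera replicate 4 from the median of the others were in Ifi44 (1.05), Usp18 (0.87), Gbp3, Nlrc5 (0.83 each) and Oas1a (0.82), and they were 0.33 in B2m and 0.38 in H2-K1. Among the 45 other interferon-induced genes measured, which are not members, it was the highest animal in 16. The mean level of the class I members, each gene centred on its mean over the 16 animals, was 0.31 in KO chimera replicate 4, −0.12 to 0.14 in the other KO chimeras and −0.15 to 0.14 in controls. For the interferon-induced members it was 0.45 in that animal, −0.12 to 0.11 in the other KO chimeras and −0.31 to 0.15 in controls.

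**Figure D2:**
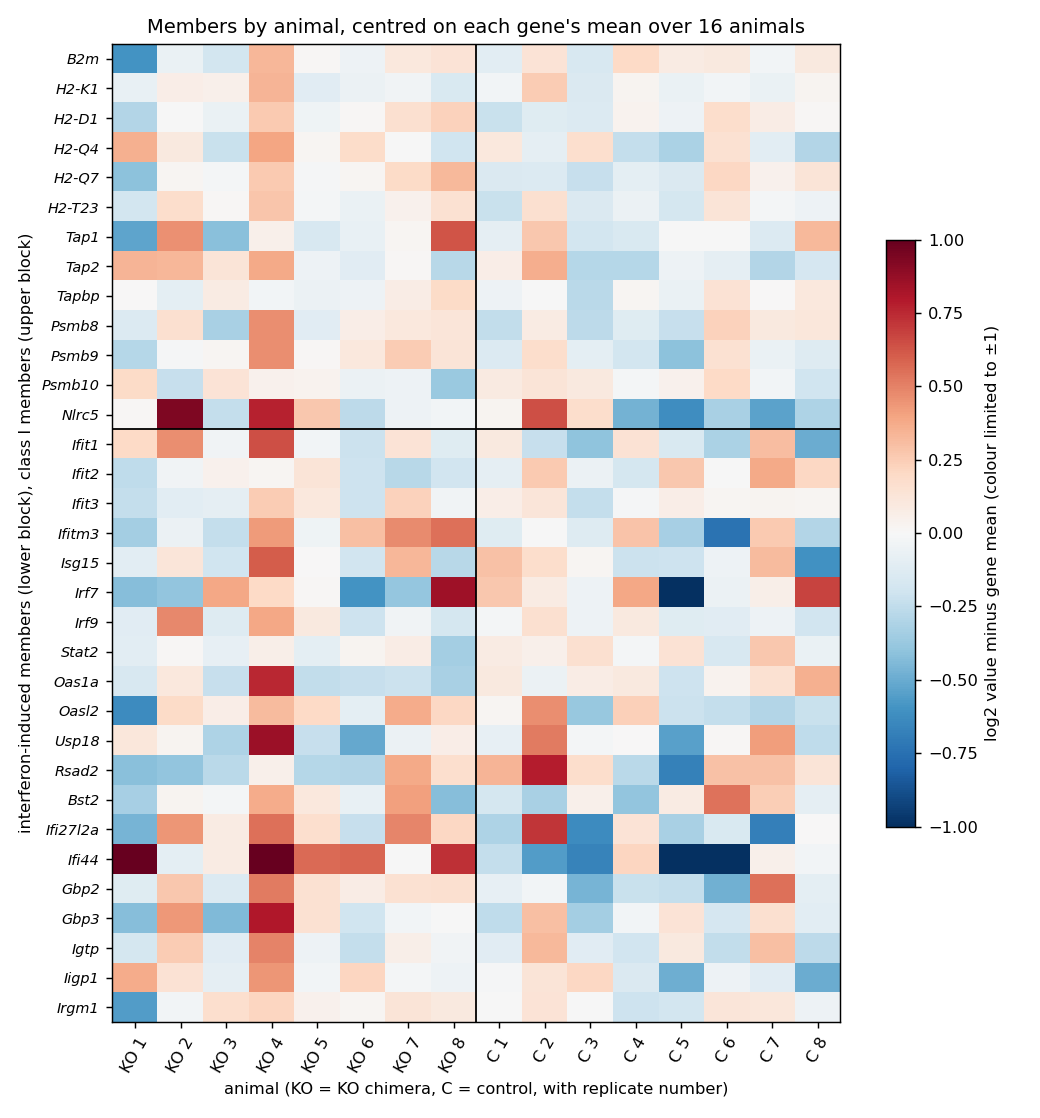
Log2 level of each measured member (rows, class I above the line) in each animal (columns, 8 KO chimeras left of the line and 8 controls right of it), minus the gene's mean over all 16; red is higher and blue lower, with colours limited to ±1. The column of KO chimera replicate 4 is red in most rows of both blocks, 17 of which have their highest value there.

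Without KO chimera replicate 4 the medians were 0.03 for class I and −0.01 for interferon-induced members, and 17 members lay above 0 and 16 below, against 23 and 10 with it. Leaving out KO chimera replicates 1 and 4 together, a choice made after seeing the data, gave 22 above 0 and 11 below. H2-K1, Isg15, Bst2, Gbp3, Igtp and Irgm1 changed sign without it. Its array was alone on its slide among those used here, so animal and slide cannot be told apart. The same animal had the highest mean level of the endothelium markers (0.54, others −0.52 to 0.33) and of the hypothalamus markers (0.69, others −0.34 to 0.42), and it ranked 14 of 16 for the thalamus markers (−1.10). The part of these in its class I and interferon levels was not tested. Its microglia markers (−0.04) were level with the highest of the other KO chimeras, and its lymphocyte markers (−0.13) lay within their range.

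At the other end, control replicate 5 had the lowest mean level of both subgroups (−0.15 and −0.31). It was the lowest animal in 7 of the 33 members and in 9.11% of all genes. KO chimera replicate 1 was the lowest in 6 members and in 20.5% of all genes, and its array had the fewest spots above background (27276, others up to 43248). KO chimera replicate 1 nevertheless held the highest Ifi44 value. Control replicate 2 had the highest class I and interferon-induced means among controls (0.14 and 0.15).

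**Figure D3:**
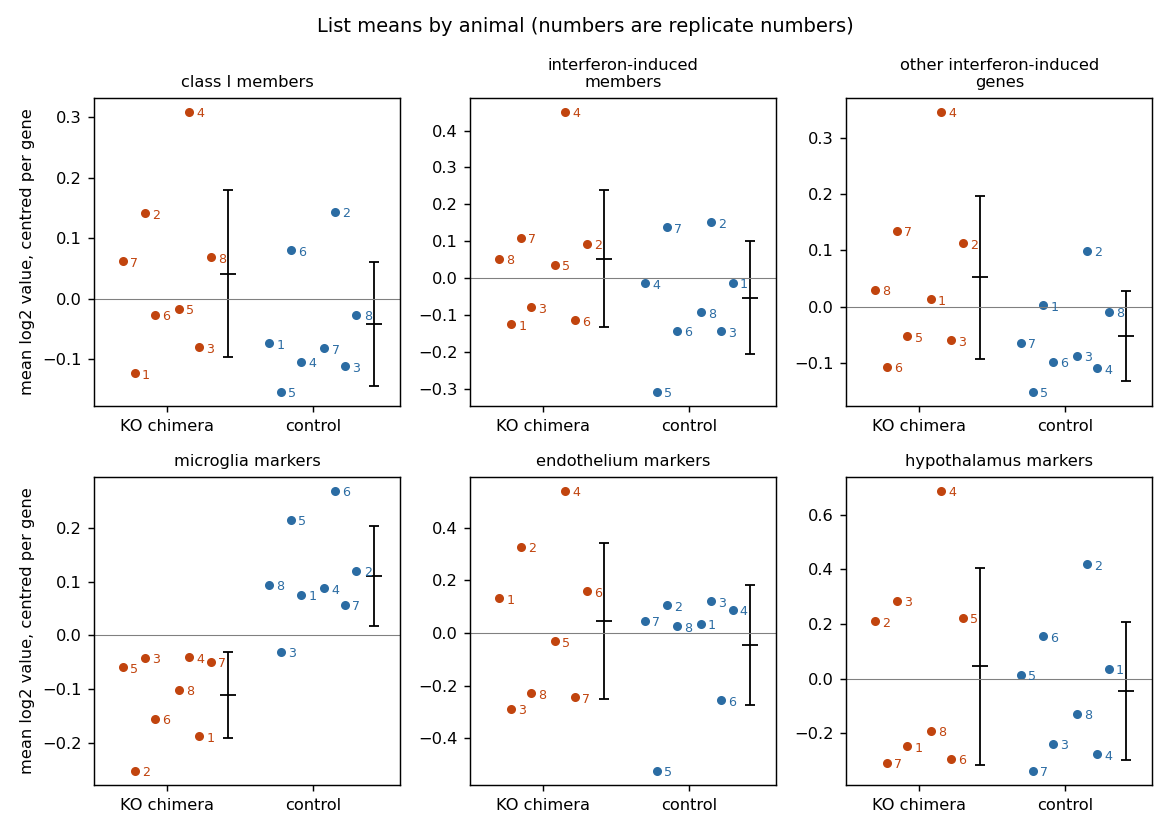
Mean log2 level of a gene list, each gene centred on its mean over 16 animals, for each KO chimera (left, red) and control (right, blue), numbered by replicate; black bars give mean ± SD (n = 8). KO chimera replicate 4 is the highest point for both member lists (0.31 and 0.45), the other interferon-induced genes (0.35), endothelium (0.54) and hypothalamus markers (0.69). Microglia markers separate the groups by a narrow gap (KO chimeras −0.25 to −0.041, controls −0.031 to 0.27).

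Scan day and slide were checked as batches, each scan day holding 4 animals of each group. The class I median was 0.08 on each of the 2 scan days, and the interferon-induced median was 0.03 and 0.06. Within the 5 slides that held both groups, the class I median ran between −0.13 and 0.21 and the interferon-induced median between −0.14 and 0.36, with 1 to 3 animals a group. Ifi44 was higher in KO chimeras within each of these 5 slides, by 0.49 to 2.27.

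The wider pathway, taken from lists of genes that are not members, held 2 genes past limma's threshold. Over all genes limma called 3.83%, and 20.7% had an unadjusted p under 0.05. Of 11 interferon ligands 9 had a probe and 5 were kept, while Ifna4, Ifnb1, Ifne and Ifnk were too dim, and 0 of the 5 passed limma's test (1 at an unadjusted p under 0.05). Ifng, the type II interferon, had −4.88, −4.47 and −3.58 in KO chimeras, against −5.65, −5.14 and −4.27 in controls. It was well above background in 5 KO chimeras and 4 controls, and its log2 fold change of 0.68 (SE 0.23) had an adjusted p of 0.0994. None of the 18 measured class I loading and class I-like genes (of 21) and none of the 12 sensors of foreign nucleic acid passed limma's test, with 4 and 0 of them at an unadjusted p under 0.05. The exact permutation test called 1 of the 18 loading and class I-like genes, against 5.02% of all genes with complete values. This was Canx, a chaperone of newly made heavy chains, with a log2 fold change of −0.13.

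Of 20 receptor and signalling genes limma called 1, and 7 had an unadjusted p under 0.05. Irf2, a repressor that competes for interferon elements (chr8:47932486-47932545, mm9), had −1.36, −1.31 and −1.18 in KO chimeras, against −1.29, −0.999 and −0.92 in controls. Control replicate 1 alone lay among the KO chimeras. Irf2 fell by 0.24 on the log2 scale (SE 0.06, adjusted p = 0.0316), by 0.34 on scan day 1 and 0.14 on scan day 2. The call was lost in 6 of the 16 fits without 1 animal (KO chimera replicates 2 and 6, control replicates 2, 4, 5 and 7, adjusted p 0.0503 to 0.0677), and with the replicate block (0.0593). It was also lost with slide as a fixed block (0.0742), with scaling on the probes above background on all arrays (0.0765) and without a filter (0.0514). Normexp lost it too, with a log2 fold change of −0.13 (adjusted p = 0.383). Irf2 was called neither within scan day 1 or 2 alone (adjusted p 0.337 and 0.471) nor without KO chimera replicates 1 and 4 (0.0632). The receptor chains Ifnar1 and Ifngr1 differed by −0.06 (SE 0.06) and −0.14 (SE 0.07). Ifnar1 had 0.65, 0.80 and 1.07 in KO chimeras and 0.78, 0.91 and 1.00 in controls, and Ifngr1 had 0.90, 1.13 and 1.18 in KO chimeras and 1.03, 1.23 and 1.42 in controls, so both overlapped.

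Of 45 other interferon-induced genes measured (of 50), limma called 1, and 9 had an unadjusted p under 0.05. The exact permutation test called the same gene as limma and 1 more, against 5.02% of all genes with complete values. The second was Cmtr1, an mRNA cap methyltransferase, with a log2 fold change of −0.13 (adjusted permutation p = 0.0444). Gbp7, a further guanylate-binding GTPase (chr3:142209379-142209438, mm9), had −3.60, −3.29 and −2.96 in KO chimeras, against −4.40, −3.90 and −3.72 in controls. Every KO chimera exceeded every control. Groups without overlap were seen in 1 of these 45 genes, against 0.956% of all genes. Gbp7 rose by 0.65 on the log2 scale (SE 0.10, 95% interval 0.44 to 0.87, adjusted p = 0.00649), by 0.80 on scan day 1 and 0.51 on scan day 2. It was called in all 16 fits without 1 animal. Within scan day 1 or 2 alone it was not called (limma adjusted p 0.318 and 0.14), where 0 and 7 of all genes were. Without KO chimera replicate 4, which ranked 5 of the 8 KO chimeras, the log2 fold change was also 0.65. Its probe was dim, well above background in 7 animals of each group, and normexp background correction gave 0.25 (adjusted p = 0.307). The probe shares no 20-base run with a probe of another gene, and the other Gbp7 probe was too dim to be kept. The median of those 45 genes was 0.10, with 31 above 0.

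**Figure D4:**
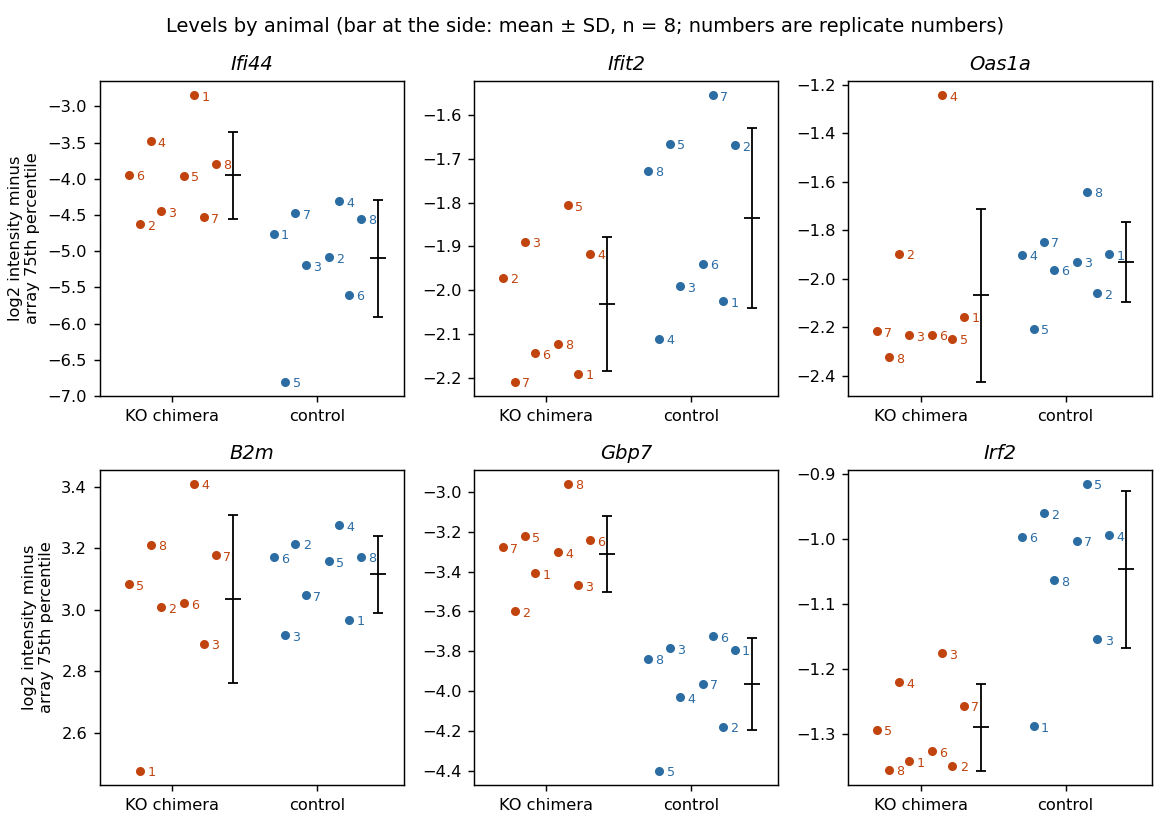
Log2 intensity minus the array's 75th percentile for 4 members (Ifi44, Ifit2, Oas1a, B2m) and for Gbp7 and Irf2 of the wider pathway, in each KO chimera (left, red) and control (right, blue), numbered by replicate, with mean ± SD (n = 8) at the side. Gbp7 alone separates the groups without overlap, and KO chimera replicate 4 stands above all others in Oas1a and B2m.

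Hypothalamus markers were present in both groups, since all 12 were measured and 11 of them were well above background on all 16 arrays. Limma called 0 of the 12. Ttr, a choroid plexus marker, ran from −1.65 to 5.35 in KO chimeras and from −2.03 to 5.69 in controls. Whether the dissections were alike was not tested. Some markers of other cell types passed limma's test where no member did. Over all genes it called 3.83%, and 2.8% were called lower in KO chimeras. No measured marker of astrocytes (6), endothelium (8), border and infiltrating macrophages (4) or choroid plexus (5) passed. Of 12 microglia markers 3 fell in KO chimeras, C1qc and Trem2 among them (list median −0.22), and 1, Itgam, lay above 0. The mean level of the list was −0.25 to −0.041 in KO chimeras and −0.031 to 0.27 in controls, which only just did not overlap. Of 9 oligodendrocyte markers 4 fell and 2, Mbp and Ermn, lay above 0 (median −0.38, KO chimeras −0.37 to 0.07, controls −0.07 to 0.40). Of 9 thalamus markers 2 fell and all 9 lay below 0 (median −0.82, KO chimeras −1.34 to 0.20, controls −0.85 to 1.46). Of 4 red blood cell markers measured 1 fell, Hbb-b2 (median −0.39; KO chimeras −0.50 to 0.13, controls −0.19 to 0.56), and of 5 neuron markers 1 fell, Rbfox3 (median −0.15), with all members of both lists below 0. The 5 genes listed as plasmacytoid dendritic cell markers, of which Bst2 is a member here, all lay above 0 (median 0.21, KO chimeras −0.30 to 0.67, controls −0.40 to 0.01). Limma called 0 of them (3 at an unadjusted p under 0.05). The largest difference was in Klk1 (1.09), well above background in only 5 KO chimeras and 4 controls, and Ccr9 was so in 7 and 7. Whether this list reads that cell type in bulk hypothalamus was not tested. Of 10 lymphocyte markers 5 were kept and none passed the test (1 at an unadjusted p under 0.05), and Cd3d, Cd8a and Ms4a1 were among those not kept. In bulk tissue, fewer cells of a type and less RNA per cell cannot be told apart. The part of these markers in the members' values was not tested. Adrb1 was lower in KO chimeras (log2 fold change −0.75, SE 0.14, adjusted p = 0.0137), in a tissue whose neural cells are the host's.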

How the data were processed

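Intensity values per spot were deposited by the authors for each of the 16 arrays as Agilent Feature Extraction output (version 10.7 per the submitters' processing notes, but 10.1.1.1 per the file headers), with background subtracted in the processed signal per the file headers. A deposited table of log2 values, made by a normalization that no source used here describes, served as an alternative; it followed the scanner's log2 values with a correlation of at least 0.9996 per array over values above 5 and had a floor of 2.2 holding 22.3% of values. The members and the gene lists were chosen with earlier results of these data known.

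Control spots and spots marked as outliers were left out, the array's 75th percentile over non-control probes was subtracted from log2 intensity, and spots of a probe were averaged. Of 55681 probes, 35140 were well above background on at least 8 of 16 arrays with at least 4 values per group. The probe with the highest mean stood for each gene (24360). Probes were named through accession (28026), current symbol (3418), older symbol (295) or the files' own name (23942). Labels gave the groups; for KO chimera replicate 2, whose title has a zero for the letter O, the source name was used. The linear model and moderated test were those of limma 3.58.1 under R 4.3.3, with a threshold of 0.05 after Benjamini-Hochberg adjustment. All 34 members are accounted for; ranges are given for the 6 members with the smallest p in each subgroup, for B2m, H2-K1, H2-D1, Nlrc5, Irf7, Irf9, Stat2 and Isg15, for members with an animal beyond Dixon's critical value, and for the other pathway genes past the threshold with Ifnar1, Ifngr1, Ifnb1 and Ifng. A few results under this rule are not reported here. Replicate numbers are not stated to pair the animals, and the reported fit did not pair them. The correlation of same-numbered deviations was −0.0744 to 0.243 and above 0.1 in 3 of 8 pairs, which cannot settle pairing. The fit was tested on simulated data. The number of arrays limits the precision. Alternatives were other scalings, background corrections, filters, probes, blocks, variance models, each animal left out, an exact permutation test and a threshold of 0.1. Figures used Python 3.11.15 and matplotlib 3.10.9.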

Additional observations from a re-analysis of the deposited data

Results flagged for a closer look

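An animal far from the rest of its group, by Dixon's ratio above its 95% critical value, was seen in 12 of 70 groups of 8 tested (33 members and 2 list means in each group). By chance about 1 in 20 independent groups would be flagged. These groups share the same animals, and the list means are made of the same members, so the count cannot be weighed against that rate. Of these 12, 4 were KO chimera replicate 4 as the highest of its group: H2-K1 at 2.83 (next 2.56), Oas1a at −1.24 (next −1.90), Usp18 at −2.15 (next −2.89) and the mean level of the interferon-induced members at 0.45 (next 0.11).

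KO chimera replicate 1 was the lowest of its group in 3, H2-Q7 at 1.01 (next 1.403), Oasl2 at −1.52 (next −0.99) and Irgm1 at −1.07 (next −0.54), and its array had the fewest spots above background. KO chimera replicate 8 was the lowest in Stat2 at 0.20 (next 0.44). Among controls, replicate 2 was the highest in H2-K1 at 2.74 (next 2.52) and replicate 7 in Gbp2 at −1.33 (next −1.91), while replicate 3 was the lowest in Ifit3 at 0.71 (next 0.95) and replicate 5 in Irf7 at −5.57 (next −4.63). The cause of these values was not tested.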

How the results depend on the processing

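No class I member was called in any of the 36 alternatives, and no member at all in 31 of them. Interferon-induced members were called in 5: 3 with median scaling (Ifit2 −0.32, Stat2 −0.24, Ifi44 1.02) and 1, Ifi44, with slide as a random block, a robust eBayes with trend, array weights, or a threshold of 0.1. Median scaling moved the median of all genes by −0.13 and called 4168 genes, 4.27% of them higher against 26.8% in the reported fit. It gave a class I median of −0.042 and changed the sign of 12 members; relative to all genes that median was 0.08. Scaling on the probes above background on all arrays turned that share to 62.9% of 723 calls, a filter that kept every probe to 40.5%, and normexp to 9.89%.

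The count of all genes called was 273 with normexp, 523 with quantile normalization, 535 with the deposited table, 598 without a filter, 488 with slide as a fixed block, 0 and 7 within scan days 1 and 2, and 2039 at a threshold of 0.1. With the replicate block it was 821, no member was called and no member changed sign. Leaving out each animal gave 364 to 1030 genes, 0 class I and 0 interferon-induced members, class I medians of 0.03 to 0.12 and interferon-induced medians of −0.01 to 0.10. Leaving out KO chimera replicates 1 and 4 together, chosen after seeing the data, called 372 genes and no member. Members uncalled in both fits changed sign in up to 12 cases per alternative. The cause of these shifts was not tested. Dim probes (Ifi44, Irf7, Rsad2, Nlrc5, Tap1, Usp18, Gbp7) are the least certain, since normexp cut Ifi44 to 0.30 and Gbp7 to 0.25.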
